A study of Mus musculus with 9 samples.

Results

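Type I interferon-stimulated antiviral genes were followed in tumour-associated macrophages of the mouse. The set was a list of 38 gene symbols taken by name and known function, with no threshold on measured values. It was chosen with earlier results of these data known. Of the 38, 36 had a row among the 18042 symbols of the deposited table, and all 36 passed the filter on low counts. Mx1 and Mx2, which encode GTPases that trap viral nucleocapsids, had no row under those symbols and were not analysed here.

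The macrophages came from subcutaneous tumours of MC38, a mouse colon carcinoma cell line, grown in wild-type female C57BL/6 mice of 6 to 8 weeks that had received 1000000 cells each. Mice were allocated to groups on day 9 and injected into the tumour with OMVs, with IN@OMVs or with solvent only (Control, called PBS-treated in the sample descriptions). Both vesicle preparations were given at 12.5 µg of vesicle protein per mouse (625 µg per kg of body weight). OMVs usually stands for outer membrane vesicles, which Gram-negative bacteria shed, and the labels do not say what IN is. Cells positive for CD11b and F4/80 were sorted, and poly(A) RNA was sequenced in 3 libraries per group, called biological replicates. The labels give neither the time from injection to harvest nor whether a replicate was 1 mouse or a pool, so p-values measure the spread between these libraries.

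Interferon-stimulated genes are the effector arm of the antiviral response. Type I interferons bind a receptor made of IFNAR1 and IFNAR2, the kinases JAK1 and TYK2 are activated, and a complex that holds STAT2 and IRF9 binds interferon-stimulated response elements in promoters. Interferon-gamma acts through another receptor and promoter elements called gamma-activated sites, and many genes respond to both. In macrophages, bacterial lipopolysaccharide can start the pathway through TLR4, which induces interferon-beta.

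The core of the response element, taken as GAAA, any 2 bases and GAAA again (TTTC, any 2 bases and TTTC on the other strand), was searched on both strands, overlaps allowed, in RefSeq promoter windows of GRCm38.p6, each running from 250 bases before a gene's start to 50 after it. Promoters of 28 of the 38 genes were in the table. At least 1 match stood in the windows of 15 of these 28 genes (53.6%), against 3.96% of the 10424 tested genes with a window. The stretches below are shown because they hold repeated matches upstream of the start, and because they show how alike the Ifit3 and Ifit3b promoters and the Oas1a and Oas1g promoters are. They read 5′ to 3′ on the gene's strand, with matches in capitals. The stretches lie at chr4:156200865-156200906 for Isg15 (minus strand), chr19:34640775-34640823 for Ifit1, chr19:34583363-34583426 for Ifit3 and chr19:34607759-34607822 for Ifit3b (plus strand). Those of Oas1a and Oas1g lie at chr5:120907526-120907555 and chr5:120887614-120887641 (minus strand), that of Bst2 at chr8:71537577-71537612 (minus strand) and that of Ddx60 at chr8:61928024-61928086 (plus strand).
Isg15: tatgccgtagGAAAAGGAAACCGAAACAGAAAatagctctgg
Ifit1: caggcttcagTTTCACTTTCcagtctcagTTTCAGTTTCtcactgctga
Ifit3: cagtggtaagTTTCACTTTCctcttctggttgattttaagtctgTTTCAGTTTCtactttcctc
Ifit3b: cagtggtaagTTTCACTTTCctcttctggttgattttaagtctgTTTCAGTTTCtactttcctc
Oas1a: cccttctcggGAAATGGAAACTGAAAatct
Oas1g: cccttctcggGAAATGGAAACTGAAAat
Bst2: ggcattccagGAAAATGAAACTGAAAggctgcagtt
Ddx60: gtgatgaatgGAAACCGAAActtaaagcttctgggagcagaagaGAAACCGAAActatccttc
Isg15 held 3 overlapping matches in a row, within the stretch from 88 to 47 bases before its start. The Ifit3 and Ifit3b stretches were identical, part of a run of 169 identical bases between the 2 windows, and the Oas1a and Oas1g windows shared a run of 73. A match describes the letters and is not evidence of binding, and no match says only that these letters were not in the window.

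The libraries held between 16813230 and 17288322 expected counts, and a gene of the set had between 247.92 (Ifit3b) and 8242.08 (Ifi204) in a library, so counting error was at most 6.35% of a value. Levels are in CPM, the share of a library taken by a gene per 1000000 counts, computed with TMM-adjusted library sizes. Of the 9 macrophage markers, 0 were called in any comparison, where 0.42% (OMVs against Control), 6.55% (IN@OMVs against Control) and 2.85% (IN@OMVs against OMVs) of all genes were called. Their summed level ranged from 8507 to 9250 CPM in Control, from 8074 to 10500 in OMVs and from 8365 to 12250 in IN@OMVs. Single markers moved in opposite directions. Itgam, the gene of CD11b, had -0.50 ± 0.13 for IN@OMVs against Control (log2 scale, ± SE, adjusted p = 0.0512). Its IN@OMVs libraries were all below the Control and OMVs libraries. For Cd68, C1qb and C1qc (0.30, 0.42 and 0.49) the IN@OMVs libraries were all above Control. The library IN@OMVs 1 stood apart with the highest macrophage sum (12250 CPM) and the lowest fibroblast sum (1450 CPM, against 3339 to 5639 in the other 8 libraries). Neutrophil markers summed to 778 to 1137 CPM in Control, 553 to 735 in OMVs and 131 to 199 in IN@OMVs, and 8 of 8 were lower in IN@OMVs than in Control, as were 5 of 7 monocyte markers. Conventional dendritic cell markers summed to 29.3 to 40.8 CPM in Control, 28.7 to 31.5 in OMVs and 32.2 to 41.4 in IN@OMVs, and 2 of 7 were higher in IN@OMVs than in Control, Clec9a (1.31 ± 0.22 on the log2 scale, ± SE) and Batf3 (1.33 ± 0.26). Of 9 tested T cell markers Il7r alone was called in that comparison (0.54 ± 0.09). Of 4 tested endothelial markers Kdr alone was called (0.98 ± 0.17), while Pecam1, Cdh5 and Emcn had changes of -0.24, -0.20 and -0.59. Of 2 tested epithelial markers Cdh1 alone was called (-0.55 ± 0.11). These single genes do not stand for their lists. The part of these cells in the results below was not tested. In bulk libraries fewer cells of a type and less RNA per cell cannot be told apart.

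After IN@OMVs the set rose against Control in 25 of 36 genes, and no gene fell. Of the 13090 tested genes, 3.32% were called higher and 3.24% lower. The median log2 fold change of the 36 genes was 0.59, with a range from 0.17 (Slfn1) to 1.10 (Ifit3b), and 36 of 36 were above 0, while the median of all tested genes was -0.00241. In 35 of the 36 genes each IN@OMVs library lay above each Control library, against 13.3% of all genes, and Slfn1 was the exception. The largest rises were those of the paralogues Ifit3b and Ifit3, followed by Ifit2, Usp18 and Isg15. Interferon-stimulated genes such as these encode proteins that bind viral RNA or tag and untag proteins with ISG15.

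After OMVs alone edgeR called 0 of the 36 genes against Control, where 0.298% of all genes were called higher and 0.122% lower. At an unadjusted p under 0.05, 9 were higher (4.7% of all genes) and 1 lower (Ddx60), and DESeq2 called 1, Herc6, where it called 1.44% of all genes. The median was 0.16 (range -0.22 to 0.44), with 31 genes above 0, and in 19 of 36 the OMVs libraries all lay above the Control libraries, against 9.89% of all genes. Without the library IN@OMVs 1, which is in neither mean of this comparison but takes part in the filter and the estimate of spread, edgeR called 1 gene, again Herc6, and 2.01% of all genes (Herc6 0.36 ± 0.08, adjusted p = 0.165 with all libraries and 0.00789 without it). Without the 3 libraries numbered 1, a choice made after seeing the data, it called 6 (Ifi205, Ifit2, Rsad2, Herc6, Parp9 and Ifi35), where 2.39% of all genes were called in either direction, against 0.42% with all libraries.

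The direct comparison at equal vesicle dose, IN@OMVs against OMVs, uses no Control library in either mean. Here 15 of 36 genes rose, none fell and 36 were above 0, against a background of 1.1% of genes called higher and 1.75% lower. The median was 0.42, and in 29 genes the IN@OMVs libraries all lay above the OMVs libraries, against 8.86% of genes. The count was lower without single libraries, at 6 without OMVs 1, 5 without OMVs 2, 7 without OMVs 3 and 9 without Control 3. In these fits 1.6%, 1.36%, 1.5% and 1.84% of all genes were called in either direction, against 2.85% with all libraries. DESeq2 called 24 genes of the set and 4.6% of all genes. Both comparisons against Control use the same 3 Control libraries, so their values below are given side by side and not correlated.

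**Figure D1:**
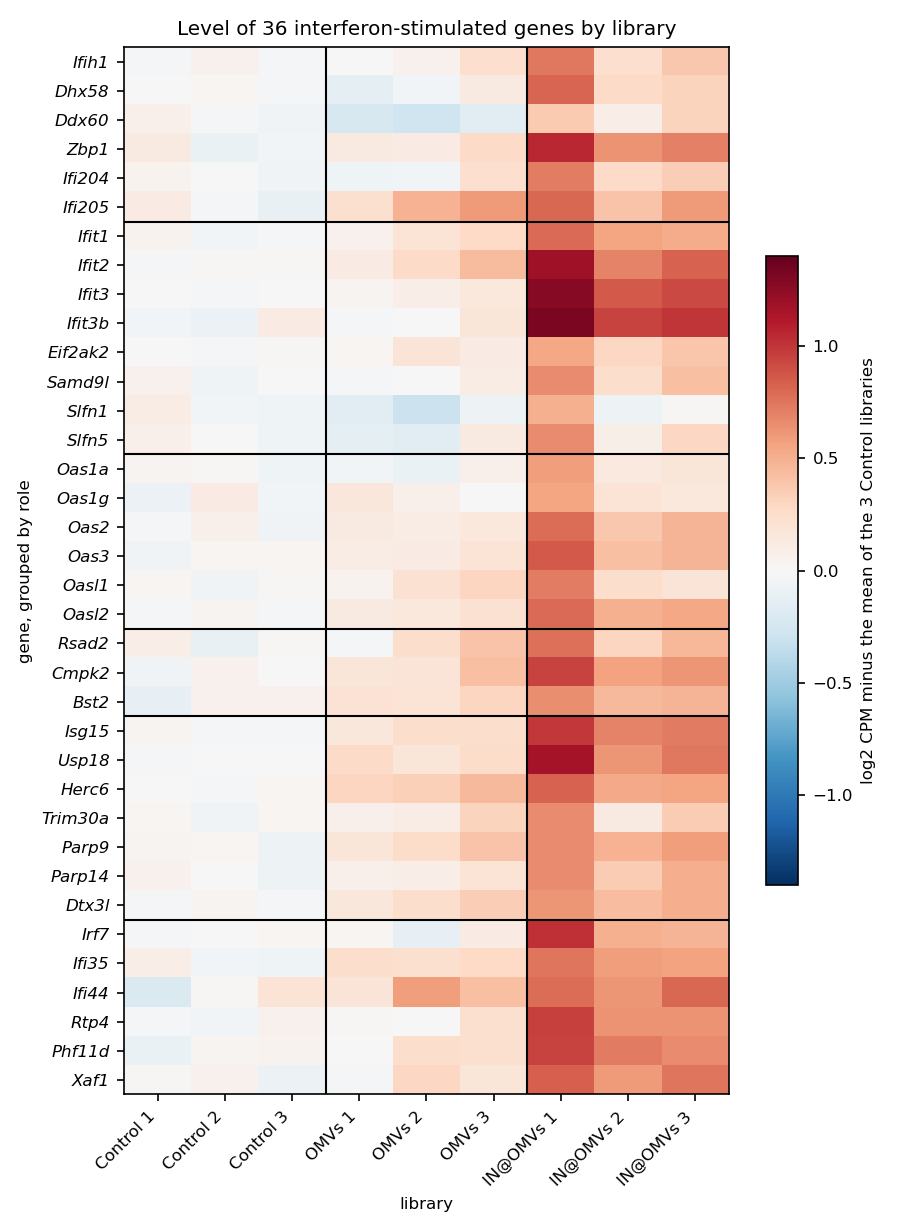
Each row is 1 of the 36 genes, grouped by role, each column 1 library, and the colour gives log2 CPM minus the mean of the 3 Control libraries. The IN@OMVs columns are red in nearly all rows and darkest in IN@OMVs 1, and the OMVs columns are paler.

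Genes that sense viral nucleic acid rose in 2 of 6 cases after IN@OMVs against Control and in 2 of 6 against OMVs. Zbp1, a sensor of Z-form nucleic acid that can start necroptosis, stood at 104, 89.5 and 92.7 CPM in Control 1 to 3, 104, 103 and 114 in OMVs and 197, 147 and 155 in IN@OMVs. Its IN@OMVs libraries were the 3 highest of the 9, and it rose against Control (0.81 ± 0.11 SE on the log2 scale, adjusted p = 0.00319) and against OMVs (0.63 ± 0.11, adjusted p = 0.0186). Ddx60, a helicase linked to RNA sensing by RIG-I-like receptors, stood at 38.1, 35.9 and 35.3 CPM in Control, 31.2, 30.0 and 32.7 in OMVs and 47.1, 39.0 and 45.4 in IN@OMVs. All OMVs libraries were below Control and all IN@OMVs libraries above it. The difference passed between the vesicle groups (0.49 ± 0.08, adjusted p = 0.013), not for OMVs against Control (-0.22 ± 0.08, adjusted p = 0.437) or IN@OMVs against Control (0.27 ± 0.08, adjusted p = 0.0882).

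Ifi204, a DNA sensor of the p200 family, had 321, 309 and 300.4 CPM in Control, 298, 302 and 366 in OMVs and 508, 372 and 394 in IN@OMVs. Its IN@OMVs libraries were all above Control without passing (0.45 ± 0.12, adjusted p = 0.0663). Ifi205, of the same p200 family, rose against Control (0.61 ± 0.12, adjusted p = 0.0204, and 0.05 with the replicate number as a block, which did not pass and called 2.47% of all genes higher). It had the largest fitted change of the set after OMVs (0.44 ± 0.12, adjusted p = 0.256), and the smallest between the vesicle groups (0.17 ± 0.12, adjusted p = 0.628). Expected counts of both p200 genes were fractional in all 9 libraries, which leaves the split of their reads with other sequences uncertain. Ifih1, which encodes the double-stranded RNA sensor MDA5, and Dhx58, its regulator LGP2, had changes of 0.47 ± 0.12 and 0.48 ± 0.14 against Control (adjusted p = 0.0578 and 0.0765), and both passed without the library IN@OMVs 1 (0.30, adjusted p = 0.0284, and 0.28, adjusted p = 0.0269).

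Among the 8 genes of RNA binding and translation block, 6 rose after IN@OMVs against Control and 4 against OMVs. IFIT proteins bind viral RNA, in part through its 5′ end, and stop its translation. Ifit3 stood at 97.0, 95.2 and 96.7 CPM in Control, 99.2, 103 and 106 in OMVs and 232, 175 and 183 in IN@OMVs, a 2.04-fold rise against Control (1.03 ± 0.10, adjusted p = 0.000542) and 0.93 ± 0.10 against OMVs (adjusted p = 0.00162). Its paralogue Ifit3b had 15.0, 14.5 and 16.5 CPM in Control, 15.0, 15.3 and 17.3 in OMVs and 38.2, 29.7 and 30.7 in IN@OMVs. It rose by 1.10 ± 0.11 (adjusted p = 0.00071) and 1.05 ± 0.11 (adjusted p = 0.00184). OMVs and Control libraries of Ifit3 did not overlap but stood close together (0.10 ± 0.10, adjusted p = 0.925), whereas the IN@OMVs libraries were far above both.

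The fractional parts of Ifit3 and Ifit3b added up to a whole number, within 0.021, in all 9 libraries, as reads divided between both genes would give, and the 2 values were not taken as independent. The same was seen for Oas1a with Oas1g, Parp9 with Dtx3l and Trim30a with Trim30d in 9 libraries, and for Ifit1 with Ifit1bl2 in 3. With these pairs summed before the fit, a choice made after seeing the data, each gene called in either IN@OMVs comparison passed alone or as part of its summed pair, where Ifit3 with Ifit3b and Parp9 with Dtx3l then count as 1 row each. With family pairs summed instead (Ifit3 with Ifit3b, Oas1a with Oas1g, Ifi204 with Ifi205, Oasl1 with Oasl2), the sum of Oasl1 and Oasl2 did not pass against OMVs (adjusted p = 0.0503), and against Control the sums that hold Ifi204 and Oasl1 passed (0.0469 and 0.00592).

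Ifit2, another RNA-binding member of the family, stood at 123, 127 and 127 CPM in Control, 136, 151 and 171 in OMVs and 285, 202 and 223 in IN@OMVs. The 3 groups formed 3 steps with no overlap, and the step from Control to IN@OMVs was 0.92 ± 0.13 (adjusted p = 0.00318), that from OMVs 0.63 ± 0.13 (adjusted p = 0.0317). The step from Control to OMVs was not called (0.28 ± 0.13, adjusted p = 0.594). Ifit1, which recognises viral caps, rose by 0.63 ± 0.08 against Control and 0.45 ± 0.08 against OMVs. Eif2ak2, the gene of the double-stranded RNA-activated kinase PKR, and Samd9l, an antiviral translation inhibitor, rose against Control (0.41 ± 0.07 and 0.45 ± 0.10). Against OMVs their changes were 0.31 ± 0.07 and 0.42 ± 0.10 and did not pass (adjusted p = 0.0554 and 0.0555).

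The Schlafen genes of the set did not pass in any comparison. Slfn5 had 196, 187 and 179.9 CPM in Control, 172, 167 and 205 in OMVs and 296, 198 and 229.7 in IN@OMVs (0.36 ± 0.14 against Control, adjusted p = 0.182). Slfn1, a regulator of immune cell quiescence, stood at 139, 126 and 124 CPM in Control, 116, 105 and 123 in OMVs and 183, 123 and 131 in IN@OMVs, and its OMVs libraries were all below Control. Only the library IN@OMVs 1 was above the Control range, and the change against Control was 0.17 ± 0.14 with it and -0.032 without it (adjusted p = 0.569 and 0.827).

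Oligoadenylate synthetases make the second messenger that activates the RNA-degrading enzyme RNase L. Of the 6 genes of this family, which include the synthetase-like Oasl1 and Oasl2, 3 rose after IN@OMVs against Control and 1 against OMVs. Oasl2, which binds RNA and carries ubiquitin-like domains, stood at 174, 181 and 175 CPM in Control, 193, 195 and 205 in OMVs and 306, 248 and 256 in IN@OMVs. The groups did not overlap, and Oasl2 rose against Control (0.61 ± 0.08, adjusted p = 0.00221) and OMVs (0.45 ± 0.08, adjusted p = 0.0189). Its change for OMVs against Control was not called (0.16 ± 0.08, adjusted p = 0.659). Oas2 had 107, 113 and 104 CPM in Control, 118, 116 and 119.7 in OMVs and 187, 140.4 and 149.9 in IN@OMVs, with a rise against Control (0.55 ± 0.10, adjusted p = 0.0104). Against OMVs it just missed the threshold (adjusted p = 0.0532), and Oas3 behaved alike (0.60 ± 0.11 against Control, and adjusted p = 0.0555 against OMVs). Oas1a and Oas1g, whose reads are shared, had close values against Control (0.31 ± 0.11 and 0.31 ± 0.11) and did not pass, nor did Oasl1 (0.40 ± 0.13, adjusted p = 0.123).

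Of the 3 measured genes that restrict viral replication and release, 2 rose after IN@OMVs against Control and 0 passed against OMVs, where 3 had an unadjusted p under 0.05 (higher at that p were 7.46% of all genes). Bst2 encodes tetherin, which holds budding virions at the cell surface. It stood at 103, 117 and 116 CPM in Control, 129, 128 and 138 in OMVs and 176, 153 and 156 in IN@OMVs, 3 groups without overlap, and rose against Control (0.53 ± 0.07, adjusted p = 0.00336). Its change for OMVs against Control was not called (0.23 ± 0.07, adjusted p = 0.338). Cmpk2, a mitochondrial nucleotide kinase, rose after IN@OMVs against Control too (0.72 ± 0.11, adjusted p = 0.00493). Its genomic neighbour Rsad2, which encodes viperin, an enzyme that makes a chain-terminating nucleotide, had 87.3, 76.0 and 82.8 CPM in Control, 81.1, 97.2 and 108 in OMVs and 139, 101 and 113 in IN@OMVs. Rsad2 overlapped between OMVs and IN@OMVs and did not pass against Control (0.52 ± 0.13, adjusted p = 0.0553), but passed without IN@OMVs 1 (adjusted p = 0.0491), IN@OMVs 2 (0.0368) or OMVs 1 (0.0457).

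Genes of ISG15 conjugation, ubiquitin ligases and ADP-ribosylation rose in 6 of 7 cases against Control and in 3 of 7 against OMVs. Isg15, the ubiquitin-like modifier whose promoter held 3 matches, stood at 59.7, 57.4 and 57.2 CPM in Control, 64.9, 68.9 and 68.8 in OMVs and 116, 94.3 and 96.4 in IN@OMVs. The 3 groups did not overlap. It rose 1.76-fold against Control (adjusted p = 0.000553) and 1.51-fold against OMVs (0.60 ± 0.08, adjusted p = 0.00472), and for OMVs against Control the change was 0.22 ± 0.08 (adjusted p = 0.443). Usp18, the protease that removes ISG15 and damps the interferon receptor, rose by 0.86 ± 0.12 against Control and 0.63 ± 0.12 against OMVs (adjusted p = 0.00397 and 0.0287). Herc6, the main ISG15 ligase of the mouse, rose against Control (0.64 ± 0.08, adjusted p = 0.0022) and did not pass against OMVs (0.28 ± 0.08, adjusted p = 0.14).

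Parp14, a mono-ADP-ribosyltransferase, had 207, 199 and 189 CPM in Control, 208, 211 and 226 in OMVs and 314, 253 and 282 in IN@OMVs. It rose against Control (0.51 ± 0.08, adjusted p = 0.00674) and OMVs (0.40 ± 0.08, adjusted p = 0.0386). Parp9 and its ubiquitin ligase partner Dtx3l, which share reads, rose by 0.58 ± 0.07 and 0.52 ± 0.07 against Control. Trim30a, a ubiquitin ligase that restrains NF-kB signalling, had 166, 156 and 165 CPM in Control, 170.3, 175 and 201 in OMVs and 256, 177 and 207 in IN@OMVs and did not pass (0.40 ± 0.12, adjusted p = 0.106), but did without IN@OMVs 2 (adjusted p = 0.0319).

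The transcription factor Irf7 and 5 other induced genes all rose against Control, 6 of 6, and 5 of 6 rose against OMVs. Irf7 amplifies interferon-alpha production and stood at 227, 230.3 and 234 CPM in Control, 235, 213 and 249.6 in OMVs and 466, 325 and 319.6 in IN@OMVs. The OMVs libraries lay on both sides of the Control libraries (0.015 ± 0.14), and the library IN@OMVs 1 was well above the other 2 of its group. The rise was 0.68 ± 0.14 against Control (adjusted p = 0.0197) and 0.67 ± 0.14 against OMVs (adjusted p = 0.036), and 0.48 and 0.47 without IN@OMVs 1 (adjusted p = 0.00129 and 0.00283).

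Rtp4, a receptor chaperone with antiviral activity, had 57.9, 56.9 and 61.2 CPM in Control, 59.1, 58.4 and 68.3 in OMVs and 114, 90.6 and 90.6 in IN@OMVs. It rose against Control (0.74 ± 0.10, adjusted p = 0.00278) and against OMVs (0.67 ± 0.10, adjusted p = 0.00888), while OMVs and Control libraries overlapped (0.078 ± 0.10). Xaf1, a pro-apoptotic antagonist of XIAP, stood at 46.6, 48.0 and 43.6 CPM in Control, 45.4, 56.2 and 51.7 in OMVs and 82.3, 69.6 and 77.4 in IN@OMVs and rose by 0.73 ± 0.09 against Control and 0.58 ± 0.09 against OMVs (adjusted p = 0.00173 and 0.0104). Phf11d, a PHD finger gene with fractional counts in all 9 libraries, had 35.2, 38.5 and 38.7 CPM in Control, 37.5, 44.3 and 43.7 in OMVs and 72.0, 62.0 and 59.5 in IN@OMVs, with rises of 0.78 ± 0.09 and 0.62 ± 0.09 in these comparisons. Xaf1 and Phf11d overlapped between Control and OMVs and were clear of both after IN@OMVs.

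Ifi35, which forms a complex with the interferon-induced protein NMI, had 44.6, 40.7 and 40.0 CPM in Control, 49.4, 48.7 and 50.7 in OMVs and 70.0, 62.5 and 61.6 in IN@OMVs. Its groups were 3 separate steps, and the rise was 0.63 ± 0.07 against Control (adjusted p = 0.000783) and 0.38 ± 0.07 against OMVs (adjusted p = 0.0175). The step from Control to OMVs was not called (0.25 ± 0.07, adjusted p = 0.2465). Ifi44, an induced antiviral gene, rose against Control (0.73 ± 0.13, adjusted p = 0.00955) but not against OMVs (0.33 ± 0.12, adjusted p = 0.255).

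**Figure D2:**
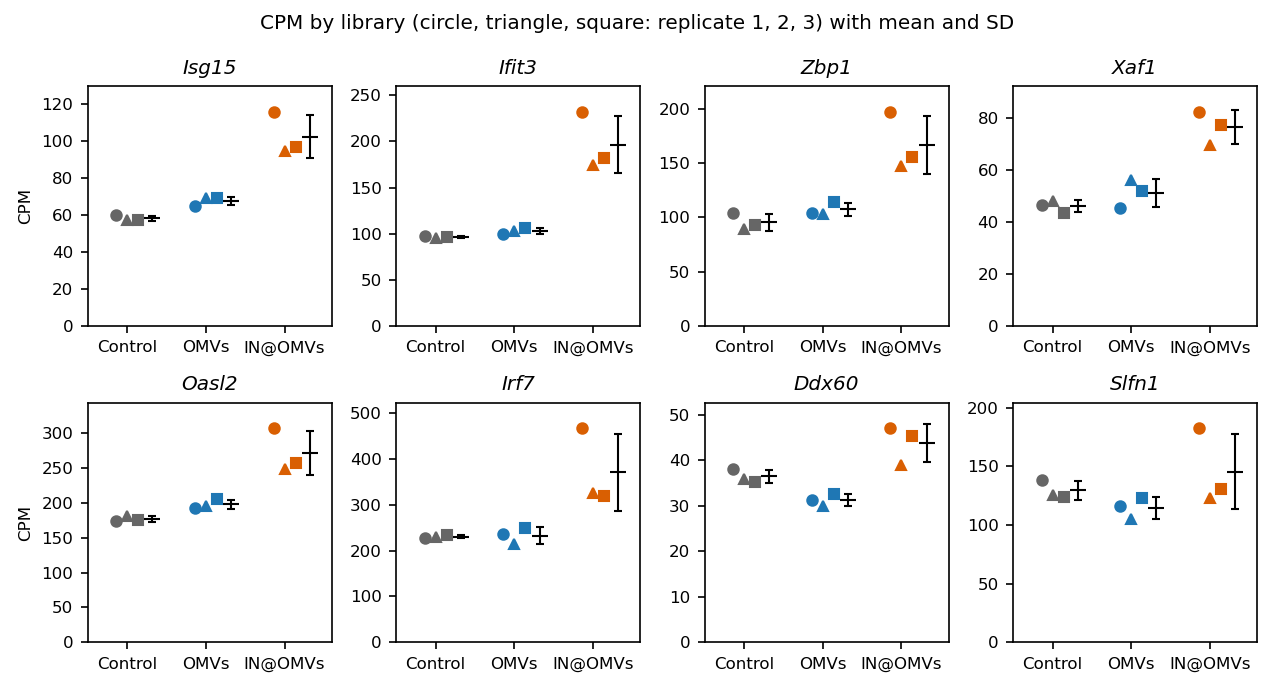
CPM of 8 genes by group, with 1 point per library (circle, triangle and square for replicates 1, 2 and 3) and the mean and SD of 3 libraries in black. The circle of IN@OMVs is the highest point in each panel, and in Slfn1 the other IN@OMVs libraries lie within the range of Control and OMVs.

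**Figure D3:**
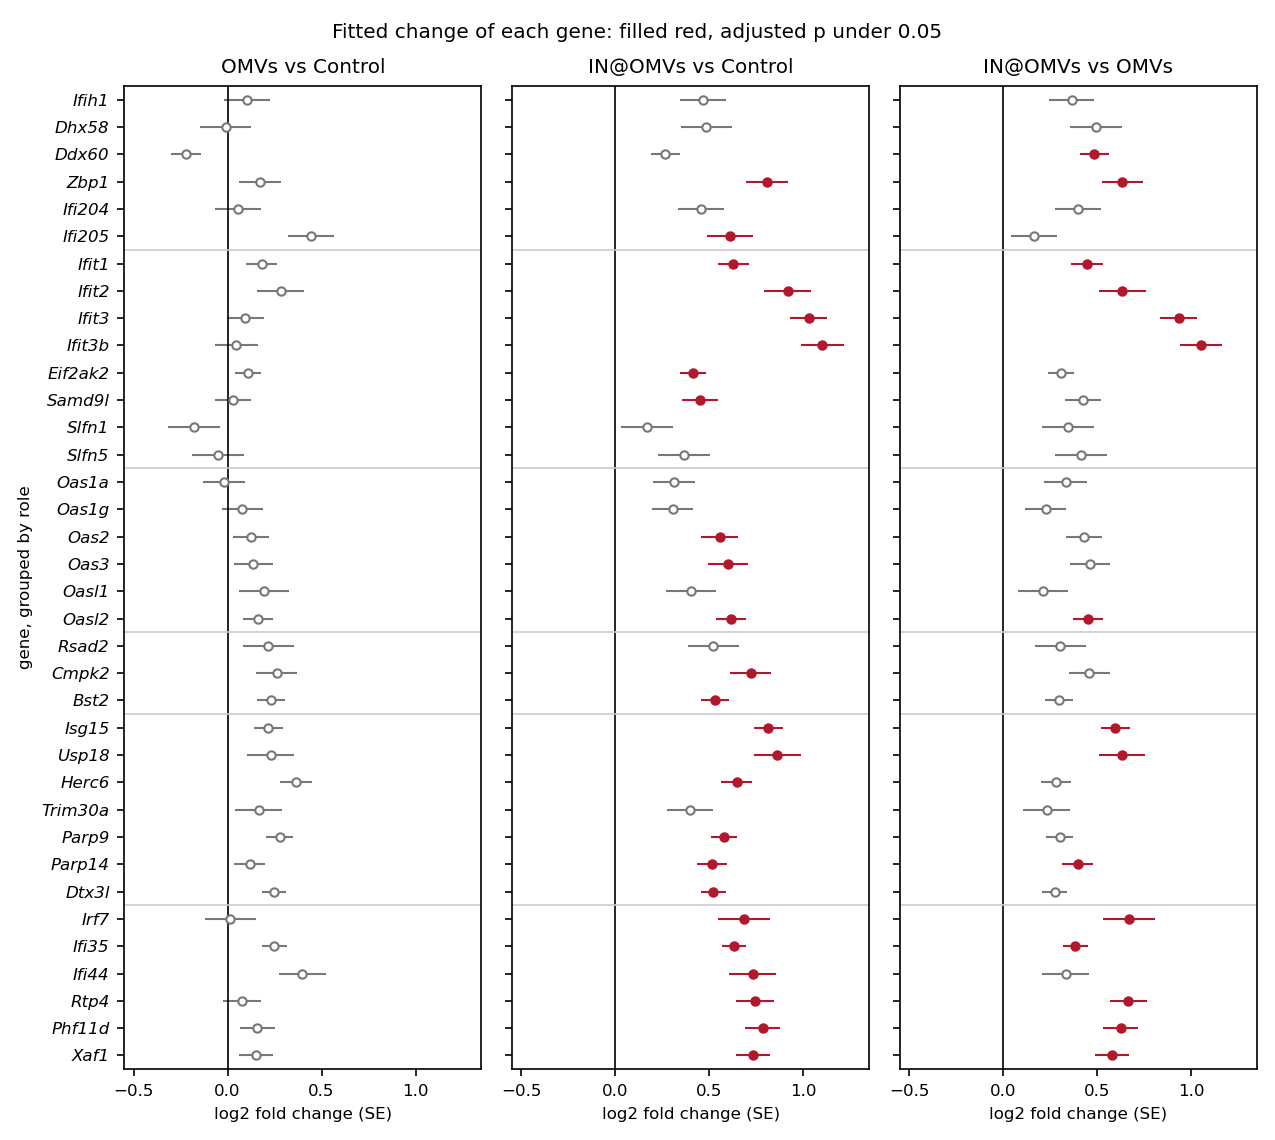
Fitted log2 fold change of each of the 36 genes with its SE in the 3 comparisons, filled red where the adjusted p was under 0.05. No gene is red for OMVs against Control, 25 are when IN@OMVs is set against Control and 15 when it is set against OMVs, and all points of the latter 2 panels are right of 0.

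How firmly single calls stood differed between the comparisons. Of the 25 calls against Control, 19 held in each of the 9 fits that left out 1 library. The other 6 ended without at least 1 library: Ifi205 without IN@OMVs 3, Control 2 or Control 3, Samd9l without IN@OMVs 3 or any Control library, Irf7 without any 1 Control library, Oas3 without Control 1 or 3, and Oas2 and Parp14 without Control 3 (adjusted p between 0.0501 and 0.116). Against OMVs 5 of the 15 calls held in all 9 fits, those of Ifit3, Ifit3b, Isg15, Phf11d and Xaf1. Rtp4 lost its call without OMVs 2 (adjusted p = 0.0517) and Ddx60 without IN@OMVs 3, OMVs 1 or OMVs 2 (0.0613, 0.0565 and 0.0704). Zbp1, Ifi35, Oasl2, Ifit1, Ifit2, Usp18, Parp14 and Irf7 lost theirs without any 1 of the OMVs libraries (adjusted p from 0.0522, Ifit1 without OMVs 3, to 0.161, Irf7 without OMVs 2). Ifit2, Usp18, Parp14 and Irf7 also lost it without any 1 of the Control libraries, Ifit1 without Control 2 or 3 and Oasl2 without Control 3, and Ifit2, Usp18 and Parp14 without IN@OMVs 3.

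The mean level of the set differed from library to library within the vesicle groups. The mean log2 CPM of the 36 genes, less the Control mean, was 0.80, 0.43 and 0.51 in IN@OMVs 1, 2 and 3, and 0.067, 0.12 and 0.23 in OMVs 1, 2 and 3. In Control it was within 0.0085 of 0 in each library. IN@OMVs 1 and OMVs 3 also stood apart from their groups over the tested genes with enough counts. The chi-square of counts per degree of freedom was 42.1 and 34.8 for IN@OMVs 1 against IN@OMVs 2 and 3. Between IN@OMVs 2 and 3 it was 3.7. For OMVs 3 against OMVs 1 and 2 it was 14.2 and 10.2, and between OMVs 1 and 2 it was 5.62. The median coefficient of variation between libraries was 14.7% for these genes in IN@OMVs (11.2% for all genes), 7.73% in OMVs (7.6%) and 3.84% in Control (5.32%).

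IN@OMVs 1 and OMVs 3 were also the libraries with the highest macrophage marker sums (12250 and 10500 CPM) and the lowest fibroblast marker sums (1450 and 3339 CPM). The part of this in the spread was not tested. In IN@OMVs 2 and 3 macrophage markers summed to 8365 and 8486 CPM, against 8507 to 9250 in Control. Of these markers Itgam stood at 1080 and 1165 CPM, against 1726 to 1798 in Control. Neutrophil markers summed to 131 and 144 CPM, against 778 to 1137 in Control. The mean of the 36 genes less the Control mean was 0.43 and 0.51 in IN@OMVs 2 and 3. The part of cell content in these means was not tested. Without IN@OMVs 1, 28 genes rose against Control (median 0.47) and 21 against OMVs (median 0.31), in a fit where 12.4% and 5.95% of all genes were called in either direction, against 6.55% and 2.85% with all libraries.

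**Figure D4:**
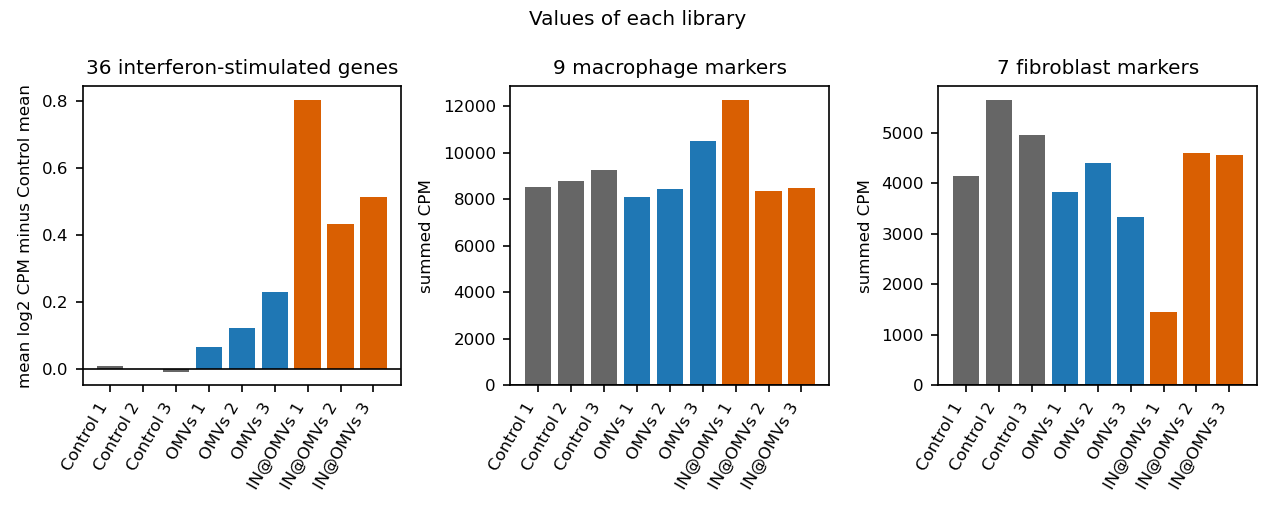
Bars give, for each library, the mean log2 CPM of the 36 genes less the Control mean (left), the summed CPM of 9 macrophage markers (middle) and the summed CPM of 7 fibroblast markers (right). IN@OMVs 1 has the highest bars on the left and in the middle and the lowest on the right, while IN@OMVs 2 and 3 are above the other groups on the left only.

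Of 21 listed interferon ligand genes, 7 had a row and the others were not analysed here. Of the 7, Ifng alone passed the filter (7.57, 1.46 and 1.04 CPM in Control, 7.41, 0.933 and 2.93 in OMVs, 8.07, 1.43 and 3.78 in IN@OMVs, 0.40 ± 0.92, adjusted p = 0.87). It was not called, and library 1 of each group had the most. Ifnb1, interferon-beta, had 11 counts over all 9 libraries, Ifnz 3.84, Ifnk 2, Ifna2 and Ifna7 1 each, and Ifna6 was listed at 0. T cell markers summed to 88.2 to 267 CPM in Control, 99.6 to 236 in OMVs and 112 to 282 in IN@OMVs and were, like Ifng, highest in libraries numbered 1. Of the 8 listed markers of plasmacytoid dendritic cells, which make much type I interferon, 4 passed the filter and 0 were called. Their sum ranged from 247 to 269.5 CPM in Control, from 241 to 288 in OMVs and from 279.8 to 358 in IN@OMVs, and its part in the results was not tested. Siglech, a defining marker that did not pass the filter, had 1.67, 0.292 and 0.230 CPM in Control, 1.49, 0.350 and 0.179 in OMVs and 0.185, 0.0570 and 0.116 in IN@OMVs, while Lair1, which other leukocytes also express, had a change of 0.48 ± 0.15 against Control (adjusted p = 0.104).

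The receptor genes did not pass in any comparison (0 of 6). Of all genes, 0.42% (OMVs against Control), 6.55% (IN@OMVs against Control) and 2.85% (IN@OMVs against OMVs) were called. The largest changes against Control were those of Ifnlr1, which had a mean of 1.33 CPM over the libraries. They were -0.75 ± 0.27 after OMVs and -0.92 ± 0.27 after IN@OMVs (adjusted p = 0.427 and 0.0866). All libraries of both vesicle groups were below Control for Ifnlr1. Il10rb had changes of 0.073 ± 0.13 and 0.19 ± 0.13. Ifnar1 had changes of 0.056 ± 0.10 after OMVs and 0.0093 ± 0.10 after IN@OMVs, Ifnar2 of 0.073 ± 0.12 and 0.035 ± 0.12, and for the interferon-gamma receptor chains Ifngr1 and Ifngr2 they were -0.28 ± 0.12 and 0.15 ± 0.11 after IN@OMVs. Downstream of the receptor, Stat2, which is specific to type I and III signalling, had 147, 147 and 147 CPM in Control, 169, 179 and 185 in OMVs and 287, 233 and 243 in IN@OMVs and rose against Control (0.79 ± 0.08, adjusted p = 0.000629) and against OMVs (0.52 ± 0.08, adjusted p = 0.00949). Its 3 groups did not overlap. Other signalling genes, which did not pass, had changes against Control of 0.23 ± 0.07 (Irf9), 0.22 ± 0.11 (Tyk2), -0.11 ± 0.08 (Jak1) and -0.14 ± 0.10 (Jak2).

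Of 16 genes on routes that induce type I interferon, 2 rose and 1 fell after IN@OMVs against Control, where 3.32% of all genes were called higher and 3.24% lower. With the replicate block 1 rose and 1 fell. Against OMVs 0 rose and 1 fell (1.1% and 1.75% of all genes). The 2 that rose against Control were Tlr3, a double-stranded RNA receptor (0.58 ± 0.10, adjusted p = 0.0104), and Cgas, the cytosolic DNA sensor (0.52 ± 0.13, adjusted p = 0.0468, and 0.102 with the replicate block). Ikbke, a kinase that activates IRF3, fell against Control (-0.65 ± 0.11) and against OMVs (-0.65 ± 0.11, adjusted p = 0.0194). Tlr4, the lipopolysaccharide receptor, had 0.25 ± 0.09 against Control (adjusted p = 0.181). Among 8 inhibitors Socs1, a feedback inhibitor of JAK kinases, rose in all 3 comparisons: 0.76 ± 0.11 (adjusted p = 0.032, and 0.0603 with the block) after OMVs, 1.56 ± 0.11 after IN@OMVs and 0.80 ± 0.10 between them. Irf2, a repressor at response elements, rose after IN@OMVs (0.35 ± 0.07), and Socs3, an inhibitor of STAT3 signalling, fell (-0.93 ± 0.10, and -0.99 ± 0.10 against OMVs).

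Of 46 other type I interferon-stimulated genes tested, 24 rose and 3 fell after IN@OMVs against Control (median 0.39), 11 rose and 1 fell against OMVs (median 0.32), and 2 rose after OMVs against Control (median 0.10). With the replicate block 21 rose and 1 fell after IN@OMVs against Control, and 0 were called after OMVs. Partners of the genes above were among those that rose: Ube2l6, the conjugating enzyme of ISG15 (0.73 ± 0.09, adjusted p = 0.00158), Uba7, its activating enzyme (0.57 ± 0.12, adjusted p = 0.0244), and Nmi, the partner of Ifi35 (0.52 ± 0.10, adjusted p = 0.0159). Phf11a and Phf11b rose like Phf11d (0.78 ± 0.16 and 0.75 ± 0.13). The 3 that fell were Ifitm1, Ifitm2 and Ifitm6, of the family of interferon-induced transmembrane proteins that hinder viral entry. With the block Ifitm1 and Ifitm2 lost their calls (adjusted p = 0.0665 and 0.0669). Ifitm6 had 22.7, 16.3 and 16.0 CPM in Control, 10.5, 6.59 and 9.80 in OMVs and 3.20, 1.43 and 2.27 in IN@OMVs (-2.99 ± 0.30, adjusted p = 0.00062), in the order of the neutrophil marker sums given above, and the part of those cells was not tested. Ifitm3 did not pass (0.16 ± 0.07, adjusted p = 0.254).

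A list of 26 genes weighted to interferon-gamma, such as guanylate-binding proteins and immunity-related GTPases, stood beside the set as follows. After OMVs 13 of the 26 rose (2 with the block, which called 0.0917% of all genes higher) with a median of 0.57, against 0 of 36 and 0.16 in the type I set. After IN@OMVs 25 of 26 rose against Control with a median of 1.09, against 25 of 36 and 0.59. Between the vesicle groups 19 of 26 rose (0.56), against 15 of 36 (0.42). These are counts beside the backgrounds given above, and the difference between the lists was not tested. The list holds genes such as Irf1 and Cxcl10 that also respond to type I interferon.

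**Figure D5:**
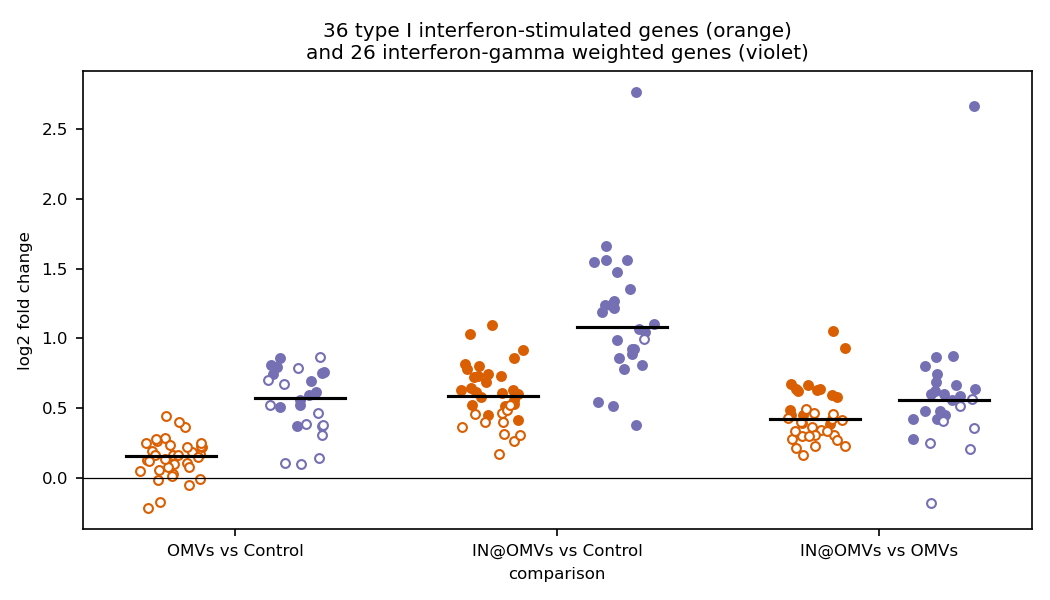
Log2 fold change of each of the 36 type I interferon-stimulated genes (orange) and 26 interferon-gamma weighted genes (violet) in the 3 comparisons, filled where the adjusted p was under 0.05, with the median as a black bar. For OMVs against Control no orange point is filled and 13 violet points are, and the violet median lies above the orange one in each comparison.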

How the data were processed

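Libraries of poly(A) RNA from sorted macrophages were counted per gene symbol by the authors. The deposited table holds expected counts, a unit settled from the values: 88.8% to 89.6% of a library's values were whole and the rest had decimals. BWA, Bowtie2 and RSEM and the builds mm9 and hg19 are named in the submitters' processing notes without versions or roles, so no gene coordinates are given for the counts. The library totals are in the report.

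Expected counts were rounded, genes filtered with filterByExpr, scaled by TMM and tested with edgeR's quasi-likelihood test (edgeR 4.0.16, R 4.3.3) in 1 model of 3 groups and 9 libraries. Benjamini-Hochberg adjustment ran over all 13090 tested genes, with 0.05 as the threshold. Fold changes are log2, with ± as SE. The procedure was tested on simulated data. Alternatives were DESeq2 1.42.0, limma-voom (limma 3.58.1), other scalings and filters, only the groups compared, summed gene pairs, each library left out, and the replicate number as a block. The labels do not say what that number marks. Same-numbered libraries had correlated deviations between OMVs and Control (0.53, 0.38 and 0.12) and between IN@OMVs and Control (0.45, 0.31 and 0.15). Libraries numbered 2 and 3 also did so across numbers. OMVs 2 with Control 3 had 0.35 and OMVs 3 with Control 2 had 0.076. IN@OMVs 2 with Control 3 had 0.36 and IN@OMVs 3 with Control 2 had 0.295. Correlations of a library numbered 1 with one numbered 2 or 3 were between -0.488 and -0.132 in these comparisons. Deviations were taken from the mean of each group, so those of its 3 libraries add up to 0. The correlations are therefore tied to each other and do not settle a pairing, and the main fit used none.

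The members and all lists were chosen with earlier results of these data known. Values in every library are given for the 2 members with the highest mean CPM of each role, and for the 10 with the smallest p between IN@OMVs and OMVs; Slfn1 was added after its values were seen. Of other lists, genes called in at least 1 comparison could be named, with receptor and signalling genes whatever their p. The interferon ligands, Tlr4, Ifitm3 and the cell type markers that were not called were added after their values were seen. Mx1 and Mx2 were not analysed here, and 1 gene of the other lists is not reported here. Promoters are from RefSeq, GRCm38.p6.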

Additional observations from a re-analysis of the deposited data

How the results depend on the processing

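No gene of the set was called lower in any of the comparisons under any alternative. IN@OMVs against Control called between 19 and 29 genes higher when 1 library was left out and between 23 and 30 under the others. In these fits 2.97% to 12.4% and 4.01% to 11.3% of all genes were called in either direction. OMVs against Control called 1 gene with DESeq2 (1.44% of all genes) and 1 with only the 2 groups compared (0.887%). It called 0 to 1 with 1 library left out (0% to 2.01%) and 6 without the 3 libraries numbered 1 (2.39%). IN@OMVs against OMVs called 24 with DESeq2 (4.6% of all genes), 7 with only the 2 groups compared (1.5%) and 5 to 21 with 1 library left out (1.36% to 5.95%). Without the libraries numbered 1, the median log2 fold change of IN@OMVs was 0.47 against Control and 0.29 against OMVs. The causes were not tested.

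With the replicate number as a block, 0, 24 and 11 genes were called higher in OMVs against Control, IN@OMVs against Control and IN@OMVs against OMVs (medians 0.15, 0.58 and 0.41). That fit called 0.153%, 5.14% and 2.34% of all genes in either direction. Ifi205 lost its call against Control. Ifit1, Ifit2, Parp14 and Irf7 lost theirs against OMVs, where same-numbered libraries had correlations of 0.073, 0.51 and -0.37.

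Directions that changed were of small differences that passed no test. With 1 library left out, the log2 change of Slfn1 for IN@OMVs against Control lay between -0.032 and 0.27. For OMVs against Control it lay between -0.084 and 0.044 for Dhx58, -0.15 and 0.0028 for Slfn5, -0.066 and 0.014 for Oas1a, -0.048 and 0.11 for Ifi204, -0.020 and 0.11 for Ifit3b, -0.010 and 0.060 for Samd9l and -0.039 and 0.073 for Irf7. Without the libraries numbered 1 it was 0.041 for Dhx58, 0.019 for Slfn5, 0.011 for Oas1a, -0.0023 for Oas1g and -0.0056 for Irf7, and for IN@OMVs against OMVs -0.044 for Ifi205 and -0.044 for Oasl1. For Oas1a it was 0.0055 with family pairs summed and 0.0055 with genes that share reads summed.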

Other observations

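The core of the gamma-activated site, TTCNNNGAA, which reads alike on both strands, stood in the promoter windows of 5 of the 28 type I interferon-stimulated genes with a RefSeq window (17.9%), in 8 of 17 interferon-gamma weighted genes (47.1%) and in 8.37% of tested genes. The response element core stood in 12 of those 17 (70.6%). These shares describe letters in the windows.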
